A study of Mus musculus with 4 samples.

Results

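The genes of the cytoplasmic ribosomal proteins were followed in stem cells and other epithelial cells of the mouse submandibular gland, one of the major salivary glands. The members were chosen by name alone: gene names on the array that read Rpl or Rps followed by a number and at most 1 letter a, x or y, together with Rplp0, Rplp1, Rplp2 and Rpsa. Pseudogenes, kinases of the Rps6k family and similarly named genes were left out. This gave 76 of the 36163 gene names on the array, 30 of the small ribosomal subunit and 46 of the large one. Rps23, a protein of the decoding centre, was not found under that name. Each gene was represented by its brightest probe.

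The study compared stem cells with non-stem cell epithelia, both sorted by flow cytometry from submandibular glands of C57BL/6 mice aged 8 to 10 weeks. No genetic change or treatment is named for either group, and which antigens defined the sorted populations is not given in the sources used here. Their total RNA was amplified, labelled with Cy3 and hybridised to 4 one-colour Agilent arrays, 2 per group. The labels do not say whether replicates were separate animals or separate sorts, so each p-value reflects nothing but the spread among these 4 samples, possibly a technical one.

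The cytoplasmic ribosome consists of a small subunit, which binds and decodes mRNA, and a large subunit, which forms the peptide bonds, each built from ribosomal RNA and a set of proteins needed in nearly equal numbers. The mRNAs of these proteins belong to the 5′ TOP class: they start with a C followed by a run of pyrimidines, and signalling through mTOR sets how well they are translated. Acinar cells of salivary glands are secretory cells that devote much of their translation to saliva proteins.

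A looser form of this feature was searched for around the annotated start sites of the members. RefSeq (GRCm38.p6) gave a promoter window for 55 of the 76 members. A C followed by further C or T, 7 bases or longer, lay between 20 bases before and 50 after the start in 80% of these windows, against 32.9% of 27025 genes. Such a run need not begin at the start itself, so the count does not show how the mRNAs begin. On the other strand the same search found it in 16.4% of members and 37.2% of all genes. The motif CCGGAAG, searched on both strands of the whole window of 300 bases, was present in 41.8% of members and 9.93% of all genes, and AAGATGGC in 9.09% and 3.19%. A match here is only a match of letters. The 50 bases around the start, 30 before and 20 from the start onwards, are shown for 8 members, to set runs of different length at the start site beside 2 members without such a run there. Capitals mark the pyrimidine run.
Rps6: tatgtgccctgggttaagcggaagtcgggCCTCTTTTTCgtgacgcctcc
Rpl28: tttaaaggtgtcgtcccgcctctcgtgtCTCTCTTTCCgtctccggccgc
Rpl38: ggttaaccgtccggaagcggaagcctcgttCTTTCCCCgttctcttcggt
Rpl15: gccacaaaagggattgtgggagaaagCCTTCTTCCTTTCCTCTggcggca
Rps10: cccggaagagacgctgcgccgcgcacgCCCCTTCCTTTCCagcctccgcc
Rplp2: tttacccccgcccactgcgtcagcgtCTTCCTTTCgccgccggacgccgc
Rps3: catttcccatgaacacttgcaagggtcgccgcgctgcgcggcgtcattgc
Rpl10: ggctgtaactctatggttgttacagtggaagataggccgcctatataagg
These windows lie at chr4:86857348-86857397 (Rps6), chr7:4792935-4792984 (Rpl28), chr11:114668550-114668599 (Rpl38), chr14:18270967-18271016 (Rpl15), chr17:27635225-27635274 (Rps10), chr7:141447621-141447670 (Rplp2), chr7:99483690-99483739 (Rps3) and chrX:74270786-74270835 (Rpl10). Rps6, Rpl15, Rps10 and Rps3 are on the minus strand and the others on the plus strand. The run was 17 bases long in Rpl15 and 8 in Rpl38. In Rps3 no run reached 7 bases. In Rpl10 the run began 41 bases after the annotated start, beyond the printed stretch but inside the part searched.

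Levels are given as log2 of the background-corrected signal minus the 75th percentile of non-control spots on that array, so that 0 is the level of that percentile. All 76 members were well above background on all 4 arrays, and no spot was saturated. The median level of the members was 8.09 on both stem cell arrays, against 7.84 and 7.68 on those of non-stem cell epithelia. The median difference, stem cells minus non-stem cell epithelia, was 0.41 on the log2 scale, with quartiles of 0.24 and 0.52 and a range from -0.09 to 0.84. Over all 17306 genes tested the median was -0.01, and over the brightest 10% of them, 1731 genes, it was 0.13. The direction of the family's median changed with another background correction, as described further on: it was -0.06 after normexp correction, which here included an offset of 50.

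**Figure D1:**
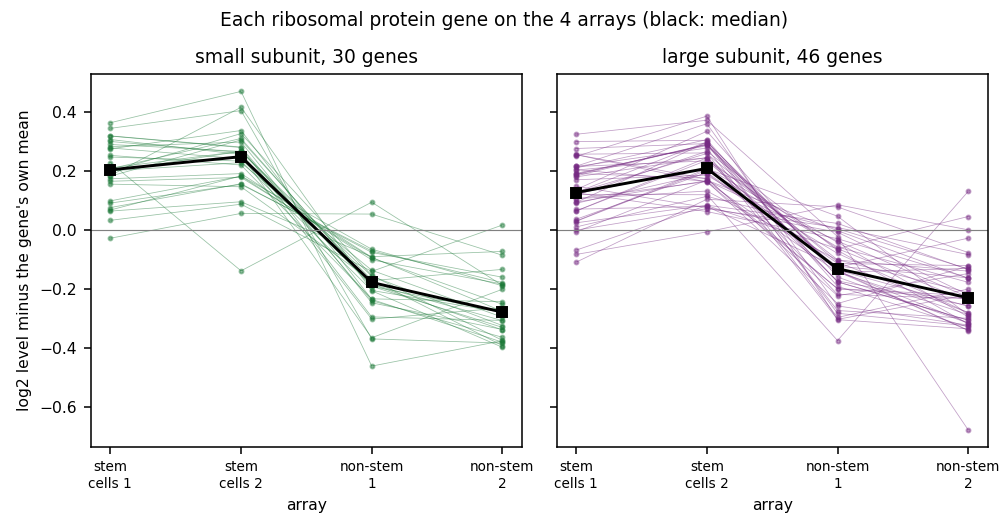
The log2 level of each member minus its own mean over the 4 arrays is plotted by array, for 30 small subunit genes and 46 large subunit genes, with black squares for the median. Under the 75th percentile scaling 67 members have both stem cell arrays above both non-stem arrays, and 8 have overlapping groups. Of all genes 35.1% have both stem cell arrays above. Lines only join the values of one gene.

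By limma, with p-values adjusted over all genes tested (Benjamini-Hochberg), 15 of the 76 members were higher in stem cells at an adjusted p under 0.05, and 0 were lower. Across all genes 14.4% were called higher and 16.7% lower, and in the brightest 10% the shares were 15.2% and 12.5%. The share of members called higher was 19.7%. The 38 members with an unadjusted p under 0.05 all had positive differences. Over all 17306 genes tested, 7608 had an unadjusted p under 0.05. Both stem cell arrays lay above both non-stem arrays in 67 members, or 88.2%, against 35.1% of all genes and 50% of the brightest 10%. Rpl10 was the 1 member with both stem cell arrays below both non-stem arrays, and in 8 members the groups overlapped. In bulk samples a change in the mix of cells and a change in RNA per cell cannot be told apart.

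The members differed little among themselves. Their differences had an SD of 0.19, compared with 0.97 over all genes and 0.80 in the brightest 10%. The SE of a single member's difference ran from 0.15 for Rpl13 to 0.25 for Rpl21, close to that SD. The order of the members is therefore uncertain. The genes just inside and outside the threshold were Rps27a, with an adjusted p of 0.0497, and Rps4x, with 0.0526, and their differences were 0.56 and 0.52. Over the 76 members the difference had a correlation of -0.07 with mean signal, 0.17 with the GC content of the probe and 0.11 with the probe's start in the transcript, as a description over genes that share the same 4 arrays.

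**Figure D2:**
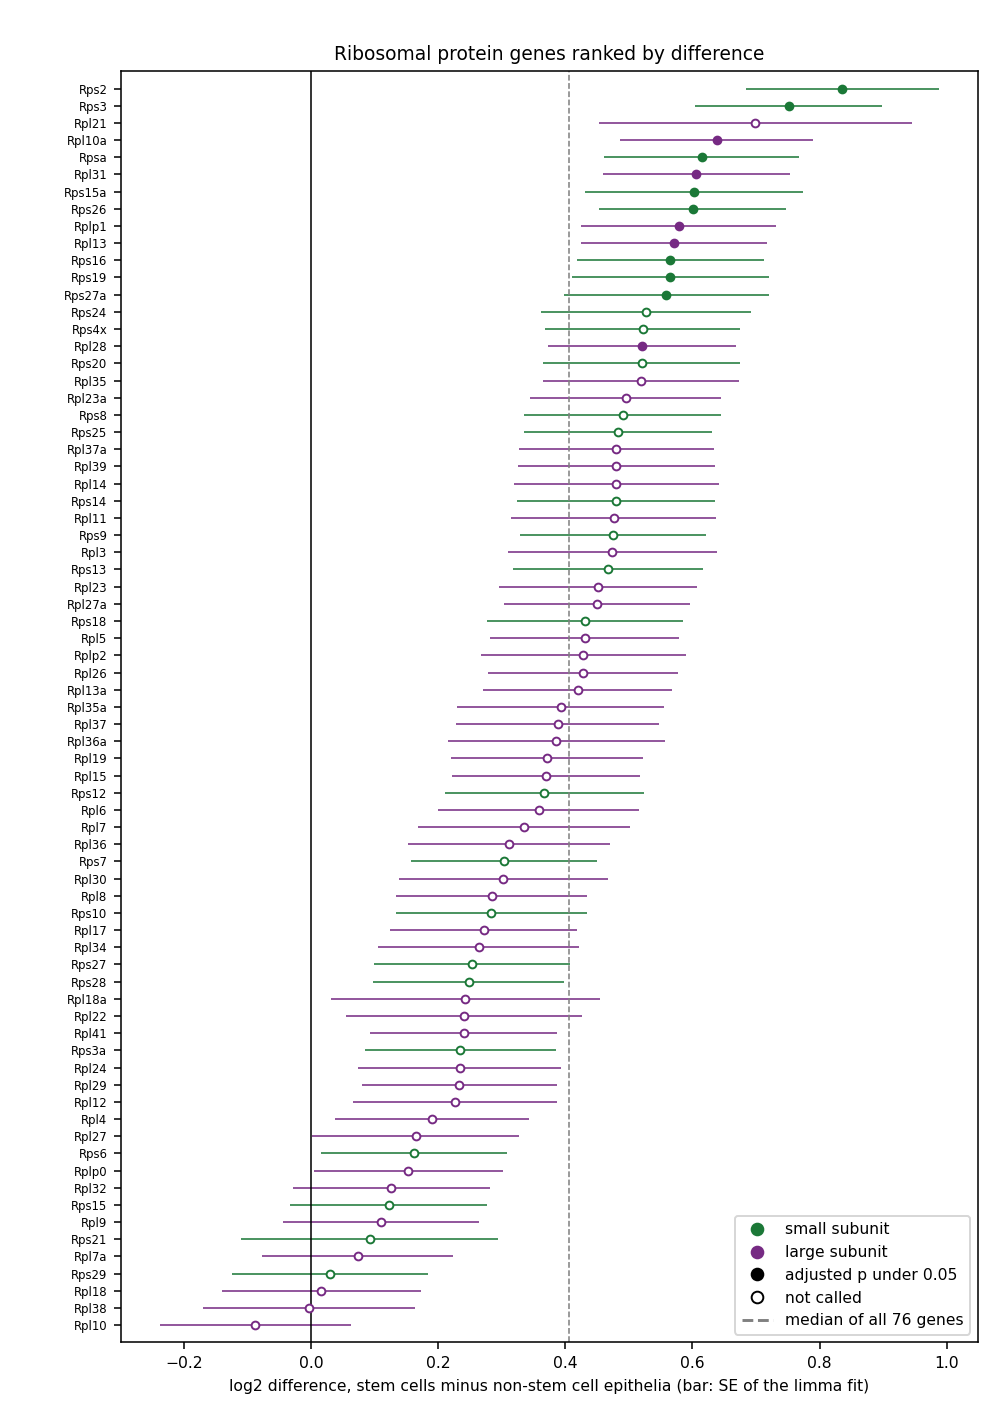
Each point is the log2 difference of a member, stem cells minus non-stem cell epithelia, with its SE from limma, and filled points have an adjusted p under 0.05. Values run from -0.09 for Rpl10 to 0.84 for Rps2 around a median of 0.41, and 8 of the 13 filled points are small subunit genes among the 73 members drawn. These are values under the 75th percentile scaling, and after normexp correction the median was -0.06.

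In the small subunit, 10 of 30 genes (33.3%) were called higher and 0 lower, against 14.4% and 16.7% of all genes. Their median difference was 0.48. The stem cell arrays were above both non-stem arrays in 28 of them (93.3%), against 35.1% of all genes. Rps2 and Rps3 sit where mRNA enters the subunit, and they had the highest differences of all small subunit genes. Rps3 had log2 levels of 6.36 and 6.42 in stem cells against 5.65 and 5.63 in non-stem cell epithelia. The arrays of each group lay close together and the groups did not overlap. The difference was 0.75 ± 0.15 (SE, n = 2 per group, limma adjusted p = 0.016), or 1.68-fold. Rps2 had levels of 7.59 and 7.70 in stem cells against 6.76 and 6.85, with no overlap. Its difference was 0.84 ± 0.15 (adjusted p = 0.013), but another probe of this gene gave another result, as described with the probes.

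At the mRNA exit, Rps26 was higher in stem cells, with levels of 7.88 and 7.84 against 7.26 and 7.25 and a difference of 0.60 ± 0.15 (limma adjusted p = 0.031). Its groups were well separated compared with the spread within each. The neighbouring proteins Rps14 and Rps28 had differences of 0.48 and 0.25 and were not called. Rpsa, also known as the laminin receptor, had levels of 9.38 and 9.44 in stem cells against 8.87 and 8.73 in non-stem cell epithelia. It was higher by 0.61 ± 0.15 (limma adjusted p = 0.033). Rps27a, which is made as a fusion with ubiquitin, had levels of 8.80 and 8.78 against 8.34 and 8.12 and was also called.

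Rps15a was higher as well. It stood at 7.81 and 8.04 in stem cells against 7.42 and 7.23 in the other epithelia (0.60 ± 0.17, limma adjusted p = 0.048). Every stem cell array was above every non-stem array. Rps16 and Rps19 were also called.

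The lowest small subunit genes were Rps29, Rps21 and Rps15. Rps29 had levels of 7.93 and 8.01 in stem cells against 8.01 and 7.87 in non-stem cell epithelia, and the groups overlapped. Its difference was 0.03 ± 0.15. Rps21 differed by 0.09 ± 0.20, with overlapping groups at 3.71 and 3.35 against 3.58 and 3.30. Rps15, a protein of the decoding centre, differed by 0.12 ± 0.15. Rps6, whose phosphorylation by S6 kinase is a common readout of mTOR activity, had levels of 7.74 and 7.77 against 7.58 and 7.60. The groups of Rps6 did not overlap, but its difference of 0.16 ± 0.15 did not pass the test (limma adjusted p = 0.43).

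In the large subunit, 5 of 46 genes (10.9%) were called higher and 0 lower, against 14.4% and 16.7% of all genes. Their median difference was 0.37. The stem cell arrays were above both non-stem arrays in 39 of them (84.8%), against 35.1% of all genes. Whether the subunits differ from each other was not tested. Rpl10a had levels of 8.57 and 8.71 in stem cells against 8.02 and 7.99 in non-stem cell epithelia. It was higher by 0.64 ± 0.15 (limma adjusted p = 0.029). Rpl31, at the rim of the exit tunnel through which the new chain leaves, had levels of 7.73 and 7.73 against 7.15 and 7.11. It was higher by 0.61 ± 0.15 (limma adjusted p = 0.031). Neither gene had overlapping groups.

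Of the 10 genes of the exit tunnel and its rim, Rpl31 was the 1 that passed the test. The median of these 10 was 0.40. Rpl38 was the lowest of them, with levels of 8.51 and 8.72 in stem cells against 8.70 and 8.54 in non-stem cell epithelia. Its groups overlapped and its difference was -0.00 ± 0.17. Rpl38 has been linked to the translation of a subset of homeobox mRNAs, and its start site holds a pyrimidine run as shown above.

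The stalk recruits translation factors and is formed by Rplp0 with copies of Rplp1 and Rplp2. Rplp1 had levels of 8.93 and 9.08 in stem cells against 8.46 and 8.39 in non-stem cell epithelia, a difference of 0.58 ± 0.15 (limma adjusted p = 0.040). Rplp2 differed by 0.43 ± 0.16 and was not called. Rplp0, a frequent reference gene in quantitative PCR, had levels of 9.11 and 9.12 against 8.91 and 9.01. The groups of Rplp0 did not overlap, and its difference was 0.15 ± 0.15. Rpl5 and Rpl11, which bind 5S RNA and can hold back Mdm2, differed by 0.43 and 0.48, and neither passed the test.

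Rpl13 and Rpl28 were the other large subunit genes called. The brightest probe of Rpl28 differed by 0.52 and its other tested probe by -0.14. With the probes of Rpl28 averaged, its difference was 0.19 and did not pass the test (limma adjusted p = 0.37). Rpl21 had a difference of 0.70 ± 0.25 but did not pass the test (limma adjusted p = 0.085). Its probe gave levels of -1.04 and -0.99 in stem cells against -1.39 and -2.04 in non-stem cell epithelia. The 2 non-stem arrays of Rpl21 were further apart than those of the other ribosomal protein genes described here.

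At the low end were Rpl10, Rpl38, Rpl18, Rpl7a and Rpl9. Rpl10, which joins the large subunit late in its assembly, had levels of 9.06 and 9.14 in stem cells against 9.23 and 9.14 in non-stem cell epithelia. The stem cell arrays were the lower ones by a small margin, and its difference was -0.09 ± 0.15. Relative to the family's median on the same array, a measure that a common shift of an array leaves unchanged, the difference of Rpl10 was -0.42. On that measure Rps2 stood at 0.51, Rps3 at 0.42, Rpl38 at -0.33, Rpl18 at -0.31 and Rps29 at -0.30. Rpl18, Rpl7a and Rpl9 differed by 0.02, 0.07 and 0.11 before this step, and none passed the test.

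Mutations in ribosomal protein genes cause Diamond-Blackfan anaemia in humans, and 9 members were listed for this reason, among them Rps7, Rps10, Rps19, Rps24, Rps26, Rpl5, Rpl11 and Rpl35a. In all 9 both stem cell arrays lay above both non-stem arrays, as in 88.2% of all members and 35.1% of all genes. Rps19 and Rps26 passed the test, and the 9 had a median difference of 0.43. Of all members 19.7% were called higher, and of all genes 14.4%. Rps19 had levels of 4.86 and 4.81 in stem cells against 4.19 and 4.35 in non-stem cell epithelia (0.56 ± 0.15, limma adjusted p = 0.043). The groups were apart by more than the spread within either.

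Several members had more than 1 probe, which let the measurement be repeated along a transcript. The 76 members had 175 probes, of which 171 could be tested. In the fit over all probes, 158 of these had a positive and 13 a negative difference, with 21 called higher and 0 lower. In 54 members with several tested probes the range between probes had a median of 0.16. Probes of opposite sign were found in Rpl21, Rpl28, Rpl7a, Rps15, Rps18, Rps2 and Rps6. In this fit over probes, Rps2 alone among these had a probe that passed the threshold. Rpl28, Rps15a, Rps19 and Rps27a were called in the fit over genes but not here. Their brightest probes had limma adjusted p-values of 0.056, 0.056, 0.0503 and 0.057 in this fit. With the probes of a gene averaged, Rpl31 and Rps15a did not pass the test (limma adjusted p = 0.055 and 0.056).

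The 2 probes of Rps2 are shown because they gave different results for the member with the highest difference.
Rps2 probe at base 354: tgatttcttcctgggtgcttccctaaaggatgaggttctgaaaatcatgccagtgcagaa
Rps2 probe at base 807: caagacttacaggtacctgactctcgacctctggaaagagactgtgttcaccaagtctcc
Both are 60 bases long and assigned to the same transcript. The probe starting at base 354 is placed at chr17:24857583-24857642 (mm9) and had levels of 5.94 and 6.02 in stem cells against 5.83 and 6.19 in non-stem cell epithelia. Its groups overlapped and its difference was -0.03 ± 0.19. The brighter probe starting at base 807 is placed at chr17:42864841-42864900, elsewhere on the chromosome, and had the difference of 0.84. A probe listed under the gene model name Gm5921 matched it at 49 of 54 overlapping bases and differed by 0.97. When the probes of Rps2 were averaged, its difference was 0.40 and no longer passed the test (limma adjusted p = 0.11). The probes of Rps3, by contrast, differed by 0.75, 0.67 and 0.49.

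Probes of Rpsa gave the widest range, 1.27. From the 5′ to the 3′ end they differed by 0.08, 0.57, 0.61 and 1.35, the last with levels of -1.14 and -0.74 in stem cells against -1.99 and -2.60. In Rps6 the probes at bases 381, 589 and 1274 differed by -0.21, 0.16 and 0.43. Rps24, whose transcripts differ at the 3′ end of the coding sequence, had 4 tested probes with differences of 0.35, 0.79, 0.54 and 0.53. In 21 members with tested probes starting at least 200 bases apart in 1 transcript, the probe nearest the 3′ end had the higher difference in 16. The median difference between the ends was 0.09 in these members. Over 2081 transcripts of any gene measured this way it was 0.13, with the 3′ probe higher in 58.8%. RNA integrity values per sample were not used here, and the part of the probe's position in these results was not tested.

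**Figure D3:**
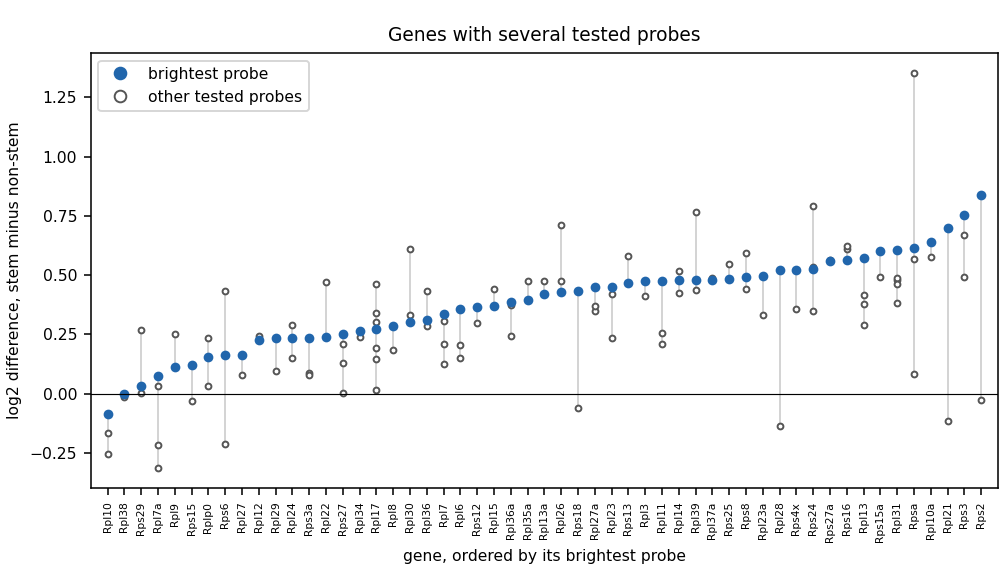
The log2 difference of every tested probe is plotted for members with several tested probes, ordered by the brightest probe (filled), for the genes reported by name. Open circles are the other probes, and the longest lines belong to Rpsa, with a range of 1.27, and to Rps2, whose probes gave 0.84 and -0.03.

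Ribosomal protein genes have many processed pseudogenes, and the array cannot tell near-identical copies apart. For 33 members a probe under another gene name overlapped the member's probe by at least 45 bases with at least 90% identity. The probes of Rps27 and Rps29 are placed on another chromosome than the gene. Of 15 pseudogene names of these families on the array, 13 were tested, with a median difference of 0.14. Rpl7a-ps5 was the 1 that passed the test, at 0.60 ± 0.15 (limma adjusted p = 0.035).

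Genes around the ribosome were read from the same fit, in lists with counts and medians only. For comparison, 14.4% of all genes were called higher, 16.7% lower, and 7608 of 17306 had an unadjusted p under 0.05. Of 3 ribosomal components outside the name rule 0 passed the test, with 2 at an unadjusted p under 0.05, although in each the stem cell arrays were above both non-stem arrays. Fau, made as a fusion with a ubiquitin-like domain, and Gnb2l1, the scaffold protein Rack1 of the small subunit, differed by 0.50 and 0.37. Of 5 tested paralogs of ribosomal proteins, Rps27l fell by 0.59 ± 0.16 and Rpl7l1 by 0.80 ± 0.17 (limma adjusted p = 0.041 and 0.022). Rps27l levels were 6.52 and 6.64 in stem cells against 7.26 and 7.09 in non-stem cell epithelia, without overlap. The median of the 5 was -0.51.

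The proteins of the mitochondrial ribosome, the other ribosome of the cell, served as a comparison. Of 73 such genes 72 were tested, 0 were called higher and 9 lower, with 18 at an unadjusted p under 0.05. The 9 are 12.5% of those tested, below the 16.7% of all genes called lower. Their median difference was -0.17. Mrpl17 fell by 0.99 ± 0.15 (limma adjusted p = 0.0080), with levels of 1.58 and 1.72 in stem cells against 2.63 and 2.66 in non-stem cell epithelia. Mrpl37 fell by 1.11 ± 0.19 (limma adjusted p = 0.011). The stem cell arrays lay above both non-stem arrays in 9 of these 72 genes and below both in 35. Over all genes the shares were 35.1% above and 36.1% below.

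Initiation factors bring the ribosome to the mRNA. Of 31 tested, 7 were lower and 0 higher, with 13 at an unadjusted p under 0.05 and a median difference of -0.37. The share called lower was 22.6%, against 16.7% of all genes. Eif4g2, an initiation factor related to the cap scaffold eIF4G, fell by 1.24 ± 0.17, and Eif3j, a loosely bound eIF3 subunit, by 1.22 ± 0.18 (limma adjusted p = 0.0054 and 0.0075). Eif5a, which helps ribosomes through stalls, fell by 1.41 ± 0.23 (limma adjusted p = 0.0096). Eif3a fell by 0.83 ± 0.17.

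Genes listed as elongation factors or as having mRNAs of the TOP class had a median of 0.13 over 20 tested, with 2 higher and 2 lower. Whether each listed gene belongs to either kind was not tested. Each count is 10% of those tested, against 14.4% of all genes called higher and 16.7% lower. Hnrnpa1, an RNA-binding protein, was higher by 1.12 ± 0.18, and Npm1, the nucleolar chaperone, by 0.62 ± 0.18 (limma adjusted p = 0.0096 and 0.048). Eef1e1, listed under its name as an elongation factor, fell by 0.93 ± 0.23 and Eif2s3x by 0.66 ± 0.18 (limma adjusted p = 0.033 and 0.041). The called genes of this list thus lay on both sides of 0.

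**Figure D4:**
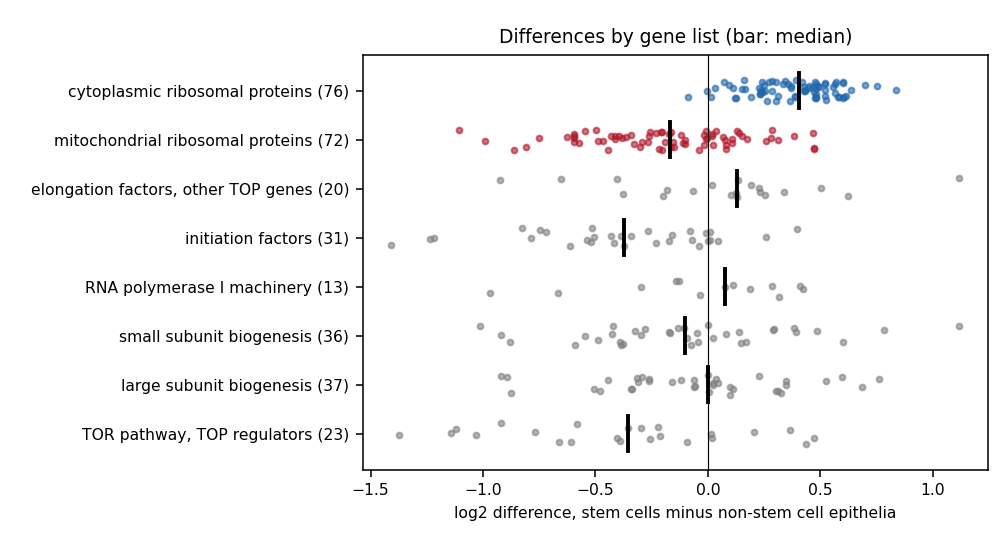
Each point is the log2 difference of a gene, stem cells minus non-stem cell epithelia, in 8 lists, with a bar at the median and the number of tested genes in parentheses. The 76 cytoplasmic ribosomal protein genes lie between -0.09 and 0.84 around 0.41 and the 72 mitochondrial ones around -0.17, under the 75th percentile scaling.

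Genes that build the ribosome were mixed. For these lists too the shares over all genes were 14.4% called higher and 16.7% lower. Of 13 genes of the RNA polymerase I machinery, which makes ribosomal RNA, Polr1b fell by 0.67 ± 0.15 and the others were not called, with a median of 0.08. Of 36 genes of small subunit biogenesis 3 were higher and 2 lower, with a median of -0.10. Utp14a was higher by 1.12 ± 0.16 and the box C/D particle protein Nop58 by 0.79 ± 0.16, whereas Tsr1 fell by 1.01 ± 0.16 and Rcl1 by 0.92 ± 0.17. Of 37 genes of large subunit biogenesis 4 were higher and 3 lower, with a median of 0.00. Nsa2, Rrp1b and Rrp1 were higher by 0.76, 0.69 and 0.60, and Wdr74 fell by 0.89 ± 0.22. Among 5 genes of H/ACA particles, which guide pseudouridylation, Naf1 was higher by 0.83 ± 0.21.

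The TOR pathway and regulators of TOP mRNAs had 0 genes higher and 6 lower of 23 tested, with 10 at an unadjusted p under 0.05 and a median of -0.35. The 6 are 26.1% of those tested, against 16.7% of all genes called lower. Eif4ebp1, which holds back cap-dependent initiation, fell by 1.37 ± 0.15 (limma adjusted p = 0.0030), with levels of 3.47 and 3.52 in stem cells against 4.80 and 4.94. Eef2k, the kinase that slows elongation, fell by 1.12 ± 0.16 and Deptor, an mTOR inhibitor, by 1.03 ± 0.17. Cnbp, which binds TOP mRNAs, fell by 0.92 ± 0.16. Brakes on translation and factors that promote it were both among the genes that fell in these lists.

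The size and sign of the family's difference depended on how the arrays were put on 1 scale. With quantile normalization the median of the members was 0.28, with 7 called higher (background 14.5%). With the 75th percentile taken over detected probes it was 0.54, with 42 called higher (19.2%), while the value of a typical gene moved by 0.14. Normexp background correction started from the mean spot signal and added an offset of 50. For comparison, the 75th percentile signals of the main scaling ran from 34.0 to 84.2. After this correction the median of the members was -0.06, with 28 members above 0. Calls were 0 higher (10.9%) and 3 lower (26.5%), namely Rpl10, Rpl18 and Rps29. The part of the offset in this change was not tested. In that setting the median over all genes was -0.07 and the value of a typical gene moved by -0.26 from that under the main scaling. Of all calls, 46.3% were higher with the main scaling, 59.5% with detected probes and 29.1% after normexp. When all 36163 gene names were tested without a filter, their median was 0.43, above that of the members, and 0 members were called (background 2.27% higher and 2.05% lower). Spike-in controls, RNAs of foreign origin added before labelling, had a median difference of 2.26 over 7 of 10, and 0 members reached that value. The 7 ran from 1.80 to 2.47, and those left out had 0.72, 1.22 and 2.74. On a scale set by the median of the 7, every member would be lower in stem cells. No fit was run on that scale.

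After these scalings the differences of the 76 members had a Spearman correlation with those of the main scaling of 0.92 with quantile normalization and 0.99 after normexp, as a description, since all come from the same arrays. The gap to all genes tested was 0.41 with the main scaling, 0.25 with quantile normalization, 0.41 with detected probes and 0.01 after normexp. The median of the members exceeded that of the mitochondrial ribosomal proteins by 0.58 with the main scaling, by 0.36 with quantile normalization, by 0.58 with detected probes and by 0.42 after normexp. It exceeded that of the initiation factors by 0.78, 0.56, 0.78 and 0.64 in the same order. The SD among members was 0.19 with the main scaling, 0.20 with quantile normalization and 0.19 after normexp. After normexp none of the 15 members called with the main scaling was called.

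**Figure D5:**
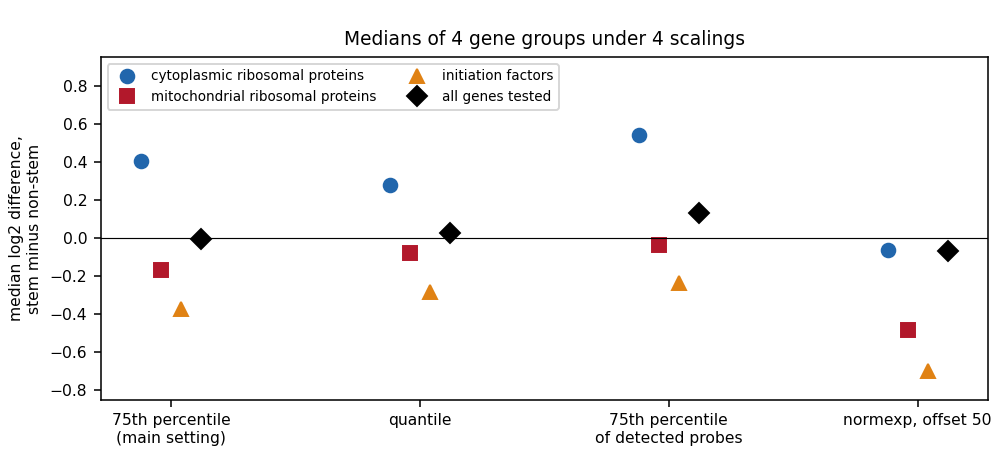
The median log2 difference, stem cells minus non-stem cell epithelia, is plotted for 4 gene groups under 4 ways of scaling the arrays. Cytoplasmic ribosomal proteins run from 0.54 with detected probes to -0.06 after normexp correction, and lie above mitochondrial ribosomal proteins and initiation factors in each setting.

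The number of calls also depended on single arrays. Leaving out stem cells replicate 1 or 2 gave 8 and 6 called members, all higher (background 16.7% and 17.5%). The background of lower calls was 18.9% and 20.7%. Leaving out non-stem cell epithelia replicate 1 or 2 gave 0, with a background of 5.14% and 3.45% higher and 5.75% and 4.35% lower. The family's median stayed between 0.37 and 0.46 in these fits. Other choices moved the number of calls as well. A filter on all 4 arrays gave 33 called members, all higher (background 20.3% higher, 19.3% lower), and an intensity trend with a robust prior gave 51, all higher (20.5% and 22.4%). The replicate number as a block left 2 (13.7% and 16.8%), and the same block with crossed numbers 7 (11.9% and 13.7%). The mean of a gene's probes gave 14 (13.8% and 16.9%), 10 of them shared with the 15, and the deposited log2 values gave 12 (14.1% and 16.8%). Rps3 was called in 10 of the 14 alternative settings and Rps2 in 9.

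The arrays themselves differed between the groups. The signal at the 75th percentile was 34.0 and 48.9 in stem cells, compared with 84.2 and 71.1 in the other epithelia, and spots well above background made up 35.7% and 39.0% against 42.3% and 41.9%. Of 11 basal epithelial markers 6 were higher in stem cells, among them Krt5 and Krt14, and of 8 acinar markers 7 were lower and 1 higher. Of 10 duct markers 4 were higher, namely Klk1, Krt19, Krt7 and Slc9a3, and 1, Egf, was lower, and of 6 general epithelial markers 2 were higher and 1 lower. Summed levels, in multiples of the 75th percentile, were 56.8 to 57.3 in stem cells against 237 to 273 in non-stem cell epithelia for 6 red blood cell markers, 5 of which were tested and all 5 lower. For 10 duct markers they were 434 to 462 against 178 to 187. For 8 white blood cell markers they were 57.1 to 75.1 against 35.1 to 39.2, with Ptprc not well above background on any array. For 8 endothelial markers they were 14.5 to 15.5 against 9.55 to 10.3 with Cdh5 not above background, and for 6 fibroblast markers 19.5 to 20.9 against 8.11 to 8.66 with Col1a1 not above background. For 5 nerve markers they were 4.77 to 5.58 against 10.7 to 14.3. The part of these differences in the results on ribosomal protein genes was not tested.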

How the data were processed

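The deposited scanner files hold spot intensity from 1-colour Agilent arrays, written by Feature Extraction 10.7.3.1 per the file headers, whereas the submitters' processing notes name version 9.1. The series table deposited by the authors holds log2 values whose array differences correlate at 1 with the scanner differences; its centring per probe is unknown (column medians of -0.28 and -0.55 for the stem cell arrays, -0.83 and -0.76 for the others). Here log2 processed signal minus its 75th percentile on the array, taken over 59305 non-control spots, was averaged by probe, without outlier spots. A gene was its brightest probe, tested if well above background on at least 2 of 4 arrays. Groups were compared with limma 3.58.1 in R 4.3.3 (two-sided, Benjamini-Hochberg, threshold 0.05, 5.47 degrees of freedom), which was tested on simulated data. The 4 arrays carry 1 slide number, so slide was no batch. The number of arrays limits precision. Members and lists were chosen with earlier results of these data known. Named genes were the 8 highest and 8 lowest members, members with a listed role, and up to 4 genes of smallest p per other list. Other genes were named after their values were seen. Probe coordinates are mm9, and promoters come from RefSeq GRCm38.p6. Values of some single genes are not reported here, though such genes stay in the counts.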

Additional observations from a re-analysis of the deposited data

How the results depend on the processing

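The small number of arrays limits every count here. The causes of changes in a count were not tested. Counts are given as ribosomal protein genes (small, large subunit) first. Quantile normalization gave 7 calls (5, 2) and a median of 0.28. Detected-probe scaling gave 42 (21, 21), a median of 0.54, and 3 of the 3 components outside the name rule, 1 for paralogs, 2 for RNA polymerase I, 4 for large subunit biogenesis and 2 for H/ACA genes. Normexp gave 3 (1, 2), all lower, and a family median of -0.062, with Rpl18 at -0.45 and Rps29 at -0.45 (limma adjusted p = 0.047 and 0.048). It also gave 9 for elongation factors, 23 for initiation factors, 2 for RNA polymerase I, 10 for small and 11 for large subunit biogenesis, 1 lower H/ACA gene, 12 for the TOR pathway and 41 for mitochondrial ribosomal proteins. Testing all names without a filter gave 1564 calls over all genes instead of 5387, 1 in the TOR pathway and 0 in every other list. A filter on all 4 arrays gave 33 (18, 15), 2 of these 3 components, 12 initiation factors, 8 for small subunit biogenesis and 17 mitochondrial genes. An intensity trend with a robust prior gave 51 (23, 28), then 3, 7 elongation factors, 17 initiation factors, 4 for RNA polymerase I of which 3 were higher, 11 for small subunit biogenesis, 3 H/ACA genes, 13 for the TOR pathway and 18 mitochondrial genes.

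The replicate number as a block gave 2 (2, 0), 1 paralog, 2 for RNA polymerase I and 5 mitochondrial genes. Deviations of same-numbered arrays from their group means correlated at -0.10 over genes. With 2 arrays per group this cannot tell whether same-numbered samples were paired, and the labels do not say. With crossed numbers, a setting chosen after seeing the data, the counts were 7 (5, 2), 1 paralog, 1 elongation factor, 3 for large subunit biogenesis and 5 mitochondrial genes.

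Leaving out 1 array at a time gave 1349 to 6626 calls over all genes, 0 to 8 ribosomal protein genes (0 to 4 and 0 to 4), 0 to 2 paralogs, 0 to 3 elongation factors, 1 to 8 initiation factors, 0 to 2 for RNA polymerase I, 0 to 10 and 0 to 8 for small and large subunit biogenesis, 0 to 2 H/ACA genes, 1 to 9 for the TOR pathway and 0 to 12 mitochondrial genes, with a family median of 0.37 to 0.46. The deposited log2 values and the mean of probes gave 12 and 14 ribosomal protein genes. Of the values of named genes across settings, 818 kept their sign and side of the threshold, 44 changed sign without being called in either setting, 181 lost and 60 gained a call, and the 2 printed above changed sign with a call.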
